A study of Mus musculus with 6 samples.

Results

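The 2′,5′-oligoadenylate synthetase (OAS) genes were examined in RNA sequencing of mouse inguinal lymph nodes, the nodes of the groin. The members were chosen by gene symbol as Oas1a, Oas1b, Oas1g, Oas2, Oas3, Oasl1 and Oasl2, which are 7 of the 50559 genes in the deposited table, and all 7 passed the filter on low values. The choice drew on the same comparison that is described here, so the members' differences are given as a description, without a test. The Naringin group (3 libraries) came from mice given naringin, a bitter flavonoid of grapefruit, mixed into the feed each day at 200 mg/kg. The Control group (3 libraries) carries no further description of its feed. The sources used here state no strain, age, sex or feeding time, nor whether each library came from its own animal, so the spread between libraries may be partly technical.

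OAS enzymes bind double-stranded RNA and join ATP into short oligoadenylates. These oligoadenylates serve as a second messenger of the antiviral response. The genes belong to the classical targets of interferon, whose signal reaches DNA through transcription factors that include STAT2 and IRF9 and through their binding element, the interferon-stimulated response element. Rodents carry an expanded set of Oas1 copies beside the long forms Oas2 and Oas3 and the OAS-like genes Oasl1 and Oasl2, which end in ubiquitin-like domains.

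The 7 members lie on chromosome 5 in the GENCODE M21 annotation of build GRCm38, an older build than the mm39 named for the deposited data. Oasl2 and Oasl1 are neighbours, and the Oas1 genes, Oas2 and Oas3 form a second cluster. Oas1b is annotated there as a polymorphic pseudogene, and the other 6 members as protein-coding. Oas1b starts head to head with Oas1c on the other strand, with their annotated starts 121 bases apart in GRCm38. Stretches before the start of Oas1a, Oas1g, Oas3 and Oas1c are shown because they hold the letters of the response element, GAAANNGAAA, which was searched on both strands. They are 60 bases each, written 5′ to 3′ on the gene's own strand (minus for all 4) from RefSeq annotation of build GRCm38.p6, and capitals mark the matched letters. The Oas1a stretch is chr5:120907526-120907585, that of Oas1g is chr5:120887614-120887673, that of Oas3 is chr5:120777688-120777747 and that of Oas1c is chr5:120812575-120812634.
Oas1a: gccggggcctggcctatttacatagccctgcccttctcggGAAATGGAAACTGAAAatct
Oas1g: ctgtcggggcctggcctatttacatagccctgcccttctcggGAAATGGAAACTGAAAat
Oas3: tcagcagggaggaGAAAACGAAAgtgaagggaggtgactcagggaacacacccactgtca
Oas1c: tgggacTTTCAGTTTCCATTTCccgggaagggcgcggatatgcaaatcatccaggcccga

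Oas1a and Oas1g carried the same 16 bases, made of a pair of overlapping matches, ending 5 and 3 bases before the start. Around them, 122 of 130 aligned bases of the Oas1a and Oas1g windows were the same. Oas1c carried those 16 bases in the reverse orientation, at -114 to -99 from its start, on the side that faces Oas1b. No window was given for Oas1b itself, so Oas1b was not searched. If RefSeq places the starts as GENCODE M21 does, 121 bases apart, the Oas1c run lies between both starts. It would then also lie before Oas1b, in the orientation it has in Oas1a. RefSeq promoter windows of 300 bases, from 250 before to 50 after a start, were given for 5 of the 7 members, and 3 of these 5 held the motif. It occurred in 3.44% of all 32851 windows. The windows of Oasl1 and Oasl2 did not contain these letters. The 16-base run, singled out after it was seen, was present in 7 of the 32851 windows, which belong to Oas1a, Oas1g, Oas1c, Apol9a and Apol9b.

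Values are counts per 1000000 reads (CPM), each gene's share of a library's reads. Between 13074180 and 14976422 reads per library had been assigned to genes, so 1 read was worth 0.0668 to 0.0765 CPM. Control 3 stood apart from the rest across all genes: its chi-square per degree of freedom against the other 5 libraries was 39.3 to 61.6, against 7.68 to 27.7 among those 5. Log2 folds are of CPM + 1, Naringin over Control, with the moderated standard error (SE) of a limma fit over 14873 genes. In that fit, 0 genes passed an adjusted p of 0.05, and 213 had an unadjusted p under 0.05. Of the members 0 of 7 passed, against 0% of all genes tested. With edgeR on recovered reads, 232 genes had an unadjusted p under 0.05 and 0 passed. DESeq2 passed 3 of the 14873 genes, 0.0202%, none of them a member.

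All 7 members had a higher mean log2(CPM + 1) with naringin, as did 56.7% of all genes tested. Their median log2 fold was 0.65, beside 0.02 for all genes tested. The groups did not overlap in 2 members, Oas2 and Oas3, against 3.36% of all genes tested that were higher without overlap. Since this contrast chose the members, nothing is read from these counts. The 7 members together took 249.9, 298.5 and 200.5 CPM in the Naringin libraries, against 182.7, 114.9 and 190.8 CPM in the Control libraries. Each Naringin sum lay above each Control sum, but Naringin 3 and Control 3 were close. The ratio of the mean sums was 1.53, or 1.34 without Control 2 and 1.68 without Control 3.

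**Figure D1:**
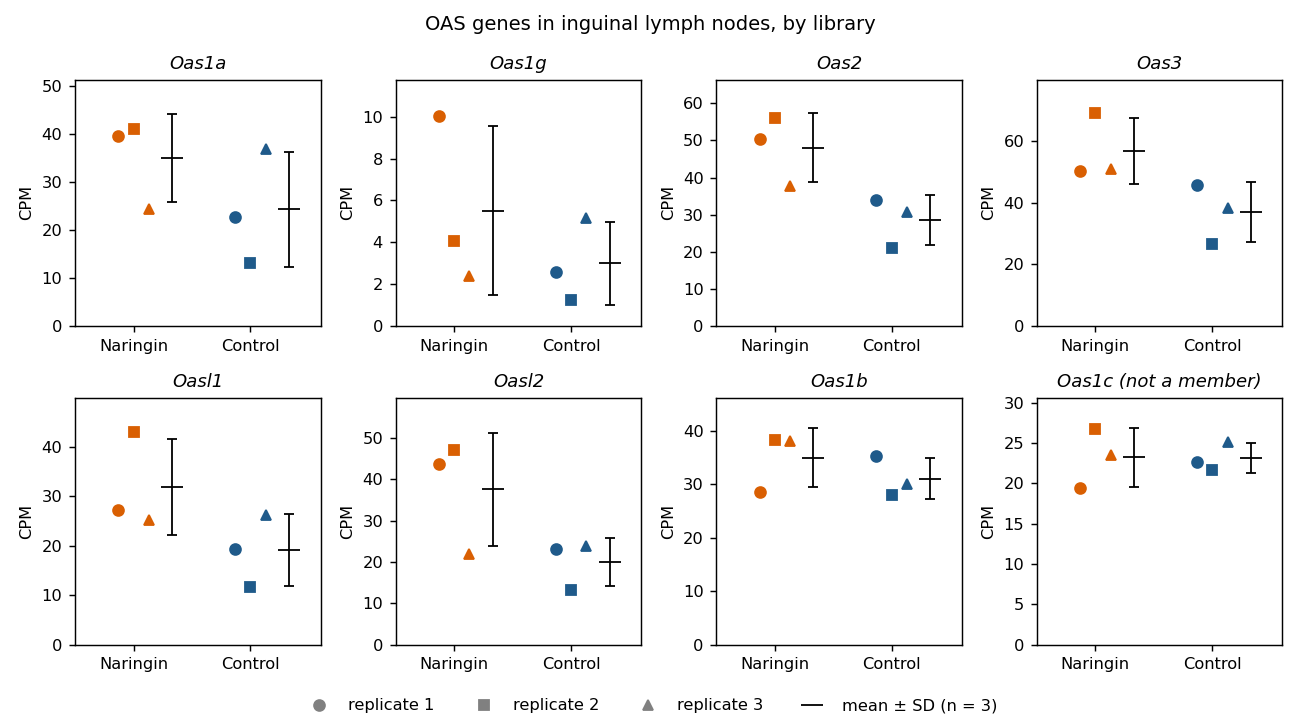
CPM of the 7 members and of Oas1c in each library; points are libraries (shape gives the replicate number), bars are the mean ± SD of 3 libraries. The groups do not overlap in Oas2 and Oas3 and do in the other 5 members. Nothing is read from this, since this contrast chose the members. Control 2 is the lowest library in all 7 members.

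The long synthetases Oas2 and Oas3 were the members whose groups did not overlap, against 3.36% of all genes tested that were higher without overlap. This is a description and does not set them apart as a class. Oas2, whose protein holds tandem OAS domains, had 50.5, 56.0 and 37.7 CPM in Naringin 1, 2 and 3, against 34.0, 21.1 and 30.7 CPM in Control 1, 2 and 3. The lowest Naringin library, Naringin 3, lay just above the highest Control library, Control 1. Their exact Poisson 95% intervals, which cover counting error only, overlapped: 34.6 to 41.0 CPM in Naringin 3 and 30.9 to 37.3 CPM in Control 1. The Oas2 means were 48.1 ± 9.38 CPM with naringin and 28.6 ± 6.69 CPM in Control (SD, n = 3 each), which is 0.74 ± 0.21 as a log2 fold (SE). Oas3, the longest synthetase, which prefers long double-stranded RNA, had 50.3, 69.1 and 51.0 CPM in the Naringin libraries and 45.8, 26.5 and 38.1 CPM in the Control libraries. Naringin 2 was high and Control 2 low, and the other 4 libraries lay within 38.1 to 51.0 CPM. The counting intervals of Naringin 1, 46.7 to 54.0 CPM, and Control 1, 42.2 to 49.6 CPM, overlapped. The means were 56.8 ± 10.7 CPM with naringin and 36.8 ± 9.71 CPM in Control (SD, n = 3 each), and the log2 fold was 0.63 ± 0.22 (SE).

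The OAS-like genes had folds of the same order, and their groups overlapped. Oasl2, an active synthetase in the mouse, had 43.8, 47.2 and 21.9 CPM with naringin and 23.0, 13.2 and 23.8 CPM in Control. Naringin 1 and 2 were high, while Naringin 3 lay below Control 1 and Control 3. The means were 37.6 ± 13.7 CPM with naringin and 19.99 ± 5.93 CPM in Control (SD, n = 3 each), and the log2 fold of 0.85 ± 0.32 (SE) was the highest of the 7. Oasl1, which lacks synthetase activity and in the mouse restrains translation of the interferon regulator Irf7, had 27.3, 42.9 and 25.1 CPM with naringin and 19.4, 11.7 and 26.1 CPM in Control. Naringin 2 stood above all others, and Control 3 lay between Naringin 1 and Naringin 3. The log2 fold was 0.74 ± 0.30 (SE), from means of 31.8 ± 9.68 CPM with naringin and 19.1 ± 7.21 CPM in Control (SD, n = 3 each). A predicted gene on the other strand, Gm13822, overlaps exons of Oasl1 in GENCODE M21, and no source used here gives the strand setting of the counting.

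Oas1a and Oas1g, active short synthetases, had the largest SE of the log2 fold among the members. Oas1a had 39.5, 41.0 and 24.3 CPM with naringin, against 22.7, 13.2 and 36.9 CPM in Control. Control 3 lay near Naringin 1 and 2, and Naringin 3 near Control 1. Its log2 fold was 0.59 ± 0.35 (SE), with means of 34.9 ± 9.23 CPM with naringin and 24.3 ± 11.9 CPM in Control (SD, n = 3 each). Oas1g, the least abundant member, had 10.1, 4.07 and 2.38 CPM with naringin, against 2.60, 1.23 and 5.15 CPM in Control. These values rest on 150, 61 and 34 reads with naringin and 34, 17 and 77 reads in Control. Naringin 1 alone lay above all Control libraries, with an exact Poisson 95% interval of 8.51 to 11.8 CPM, against 4.06 to 6.43 CPM for Control 3, intervals that cover counting error only. The log2 fold was 0.65 ± 0.49 (SE), and 0.18 without Naringin 1.

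Oas1a and Oas1g are close copies, so the share of reads given to each is uncertain. Of all windows of 50 bases in the annotated Oas1a transcripts, 57.6% also occurred in Oas1g, and 45.7% of the Oas1g windows occurred in another OAS gene. With windows of 100 bases the shares were 40.9% for Oas1a and 31.2% for Oas1g. No source used here gives the read length or the handling of reads that match both. The ratio of Oas1a to Oas1g CPM was 3.93, 10.1 and 10.2 in the Naringin libraries and 8.74, 10.7 and 7.17 in the Control libraries, so Naringin 1 had the lowest ratio. Oas2, Oas3, Oasl1 and Oasl2 shared no window of either length with another OAS gene, and Oas1b shared 1.17% of its windows of 50 bases.

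Oas1b had the smallest log2 fold and the smallest spread of the 7 members. It is the gene behind flavivirus resistance in mice, and most laboratory strains carry a truncating stop codon in it. Oas1b had 28.6, 38.3 and 38.1 CPM with naringin, against 35.3, 28.0 and 30.01 CPM in Control. Naringin 1, among the high libraries in most other members, was here within the Control range. Its means were 35.0 ± 5.53 CPM with naringin and 31.1 ± 3.76 CPM in Control (SD, n = 3 each), and the log2 fold was 0.16 ± 0.16 (SE). The coefficient of variation between libraries was 15.8% with naringin and 12.1% in Control, against 18.8% to 73.2% with naringin and 23.4% to 66.4% in Control for the other 6 members. Whether the fold of Oas1b differs from those of its paralogs was not tested. Oas1b took 11.4%, 12.8% and 19.0% of the CPM of the 7 members in the Naringin libraries, against 19.3%, 24.4% and 15.7% in the Control libraries.

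Of the 5 other Oas1 genes of the table, only Oas1c passed the filter on low values, a mean of 1 CPM over the 6 libraries. Oas1c, the head-to-head neighbour of Oas1b, had 19.4, 26.8 and 23.5 CPM with naringin and 22.6, 21.6 and 25.1 CPM in Control. The Naringin libraries lay on both sides of the Control range, with a log2 fold of -0.0029 ± 0.16 (SE). A gene on the other strand, Gm43069, overlaps exons of Oas1c in GENCODE M21, and the strand setting of the counting is not known. Oas1d and Oas1f had 0 reads in every library, where 3 reads would be 0.2003 to 0.2295 CPM. Oas1e had 3 reads over the Naringin libraries and 3 over the Control libraries, and Oas1h had 2 and 0.

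**Figure D2:**
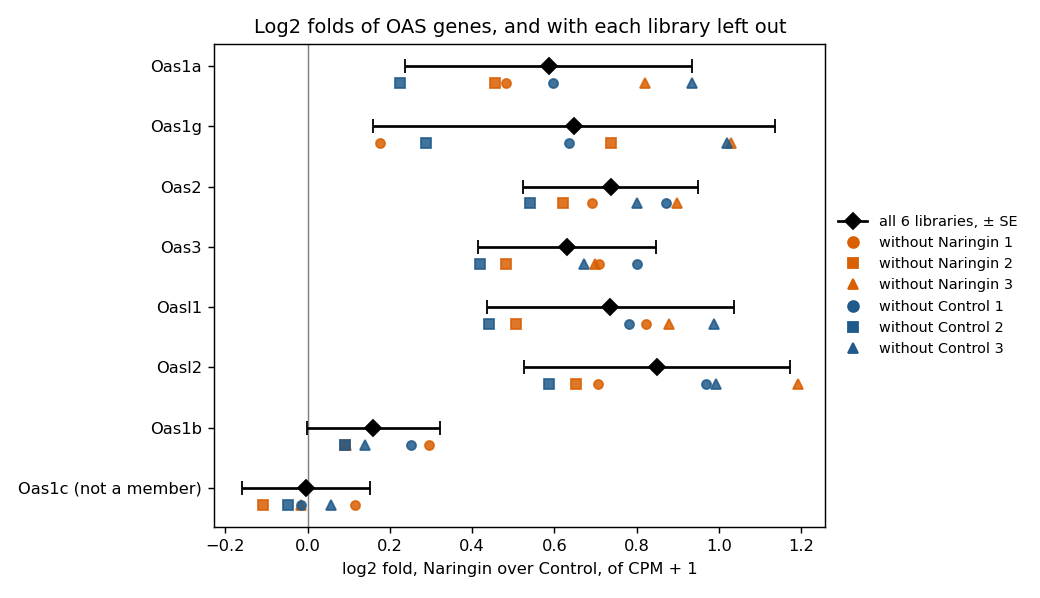
Log2 fold of CPM + 1, Naringin over Control, for the 7 members and Oas1c: diamonds with SE for all 6 libraries, coloured points with 1 library left out. All member points lie above 0, and leaving out Control 2 gives the lowest fold in 6 of the 7 members.

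The size of the folds rested on single libraries. Control 2 was the lowest library in 7 of 7 members and Naringin 2 the highest in 6 of 7. Without Control 2, the log2 folds were 0.22 for Oas1a, 0.29 for Oas1g, 0.54 for Oas2, 0.42 for Oas3, 0.44 for Oasl1, 0.59 for Oasl2 and 0.09 for Oas1b. Each was then smaller than with all libraries. Without Control 3, the library that stood apart, they were 0.94 for Oas1a, 1.02 for Oas1g, 0.80 for Oas2, 0.67 for Oas3, 0.99 for Oasl1, 0.99 for Oasl2 and 0.14 for Oas1b. Those of Oas1a and Oas1g grew by over 1.5 times. Of the Naringin libraries, Naringin 1 and Naringin 2 each lay above all Control libraries in 6 of 7 members, while Naringin 3 did so in 3 and lay within the Control range in 4. Without Naringin 3 the fold of Oas1g was 1.03 and that of Oasl2 1.19; without Naringin 1 that of Oas1b was 0.29, and without Control 1 it was 0.25. Without Naringin 2 that of Oas1b was 0.09, and without Naringin 3 it was also 0.09.

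**Figure D3:**
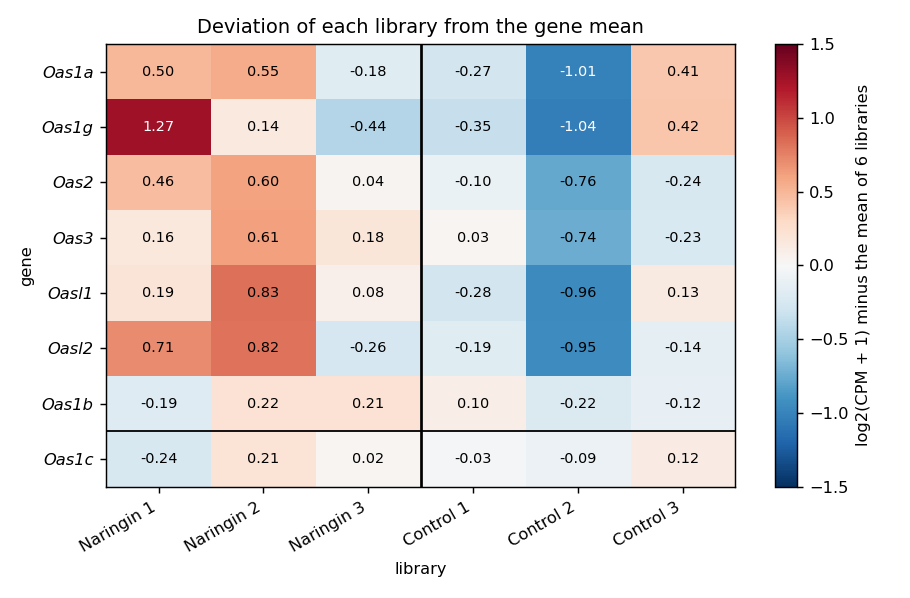
Log2(CPM + 1) of each library minus the gene's mean over the 6 libraries, for the 7 members and Oas1c; colour and number give the deviation. Control 2 is lowest for the members, from -1.04 in Oas1g to -0.22 in Oas1b.

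Members were then compared by the shape of their profile over the 6 libraries, each standardized to a mean of 0 and an SD of 1; likeness is the root mean square distance, smaller meaning more alike. The closest pair was Oas2 and Oasl2 at 0.26, then Oas2 and Oas3 at 0.32. Oas1a was closest to Oasl1, at 0.42, and stood at 0.52 from its copy Oas1g. Oas1b was 0.73 from Oas3, its nearest member, and 1.55 from Oas1g. The mean profile of the members was 0.76, 1.35 and 0.08 in Naringin 1, 2 and 3, against -0.23, -1.88 and -0.07 in Control 1, 2 and 3. Of the 11484 genes averaging 5 CPM or more, the 10 non-members most like it were Ccl12, Armc1, Dhx58, Irf9, Rtp4, Isg15, Kctd5, Mx2, Gpsm2 and Slc25a20, at distances of 0.12 to 0.31. Ccl12, a monocyte-attracting chemokine, was nearest, with 24.9, 28.7 and 20.1 CPM with naringin and 18.7, 9.54 and 17.5 CPM in Control. The ubiquitin-like modifier Isg15 had 33.2, 48.5 and 26.2 CPM with naringin and 19.7, 10.5 and 31.1 CPM in Control. The groups overlapped in Isg15, through Control 3, and did not in Ccl12, Armc1, Rtp4 and Kctd5. They overlapped in the rest of the 10. Of all genes tested, 3.36% were higher without overlap. The 10 were picked for likeness to the members, which this contrast chose, so nothing is read from their overlap. None of the 10 passed the limma threshold. Among the same 11484 genes Oas2 ranked 2 and Oas1a 32, whereas Oas1b ranked 1126 and Oas1c 2564. The profile was built from the members, which favours their own ranks.

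Levels of different members are set side by side per length only, as CPM per kilobase of annotated exon. In the Naringin libraries the order was Oas1a at 18.5 ± 4.89, Oas1b at 17.6 ± 2.77, Oasl1 at 12.2 ± 3.71, Oas2 at 10.8 ± 2.11, Oas3 at 8.03 ± 1.51, Oasl2 at 5.90 ± 2.16 and Oas1g at 2.35 ± 1.72 CPM per kilobase (SD, n = 3). In the Control libraries it was Oas1b at 15.6 ± 1.89, Oas1a at 12.9 ± 6.34, Oasl1 at 7.31 ± 2.77, Oas2 at 6.43 ± 1.503, Oas3 at 5.21 ± 1.37, Oasl2 at 3.14 ± 0.930 and Oas1g at 1.28 ± 0.849 CPM per kilobase (SD, n = 3). Within single libraries, Oas1a was above Oas1b in 3 of 6 and Oas2 above Oasl1 in 3 of 6, so the order of these neighbours was not stable. Oas2 was above Oas3, and Oas3 above Oasl2, in 6 of 6 libraries. Oas1g was the lowest in every library. The places of Oas1a, Oas1b, Oas2, Oas3 and Oasl2 depended on the length used. Per kilobase of the longest coding transcript, Oas2, Oasl2 and Oas3 came to 12.1 ± 2.37, 12.04 ± 4.40 and 12.03 ± 2.26 with naringin and to 7.22 ± 1.69, 6.40 ± 1.90 and 7.80 ± 2.06 in Control (SD, n = 3). On that length Oas2 was above Oas3 in 1 of 6 libraries, and Oas1b, at 19.1 ± 3.02, came before Oas1a, at 18.5 ± 4.89, in the Naringin means.

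Of the 3 genes listed around the removal of oligoadenylates, 0 passed in either direction. Their median log2 fold was 0.28, beside 0.02 for all genes tested. Pde12, a mitochondrial enzyme that degrades oligoadenylates, had a log2 fold of 0.31 ± 0.14 (SE). Each Naringin library lay above each Control library in Pde12, 1 of the 3 genes, against 3.36% of all genes tested. Akap7, whose nuclear form degrades oligoadenylates in the mouse, was at 0.11 ± 0.23, and Abce1, a ribosome recycling factor, at 0.28 ± 0.19 (SE).

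Of 10 other genes listed around the sensing of foreign nucleic acid, 10 had a higher mean log2(CPM + 1) with naringin, against 56.7% of all genes tested. Of these genes, 0 passed in either direction. Their median log2 fold was 0.36, beside 0.02 for all genes tested. Eif2ak2 (PKR), the kinase that halts translation on double-stranded RNA, was at 0.53 ± 0.27, and the helicase Dhx58 (LGP2) at 0.49 ± 0.21 (SE). Zbp1, a sensor of left-handed nucleic acid, was at 0.42 ± 0.16, and Cgas, a nucleotidyltransferase structurally related to OAS enzymes that senses DNA, at 0.43 ± 0.19 (SE). The groups did not overlap in 3 of the 10, against 3.36% of all genes tested: Zbp1, Cgas and Ddx58 (RIG-I) were higher in each Naringin library. The remaining 4 were Ifih1 at 0.37, Tlr3 at 0.36, Adar at 0.17 and Mavs at 0.13. Sting1, the adaptor downstream of Cgas, was at 0.0031 ± 0.14 (SE).

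Of 12 interferon signalling genes, 7 were higher and 5 lower, while 56.7% of all genes tested were higher. Their median log2 fold was 0.06, beside 0.02 for all genes tested, and 0 passed the threshold in either direction. The groups overlapped in all 12, against 3.36% of all genes tested higher and 2.29% lower without overlap. Irf7, the regulator that Oasl1 acts on, was at 0.62 ± 0.32 (SE), with 160.0, 202.4 and 119.9 CPM with naringin and 99.1, 65.4 and 163.1 CPM in Control. Its Control 3 value lay above Naringin 1 and Naringin 3, while Control 2 was lowest, as in the members. Usp18, a feedback inhibitor of the interferon receptor, was at 0.44 ± 0.22, Stat2 at 0.27 ± 0.14 and Irf9 at 0.22 ± 0.15 (SE). The receptor genes Ifnar1 and Ifnar2 were both at -0.04. The other 6, Jak1, Tyk2, Irf1, Irf2, Irf3 and Socs1, lay between -0.11 for Tyk2 and 0.09 for Socs1. Of 20 interferon genes, 17 had 0 reads in every library, all listed alpha interferons and Ifnb1 among them. Ifng, the only one tested, had 41 reads over the Naringin libraries and 54 over the Control libraries.

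**Figure D4:**
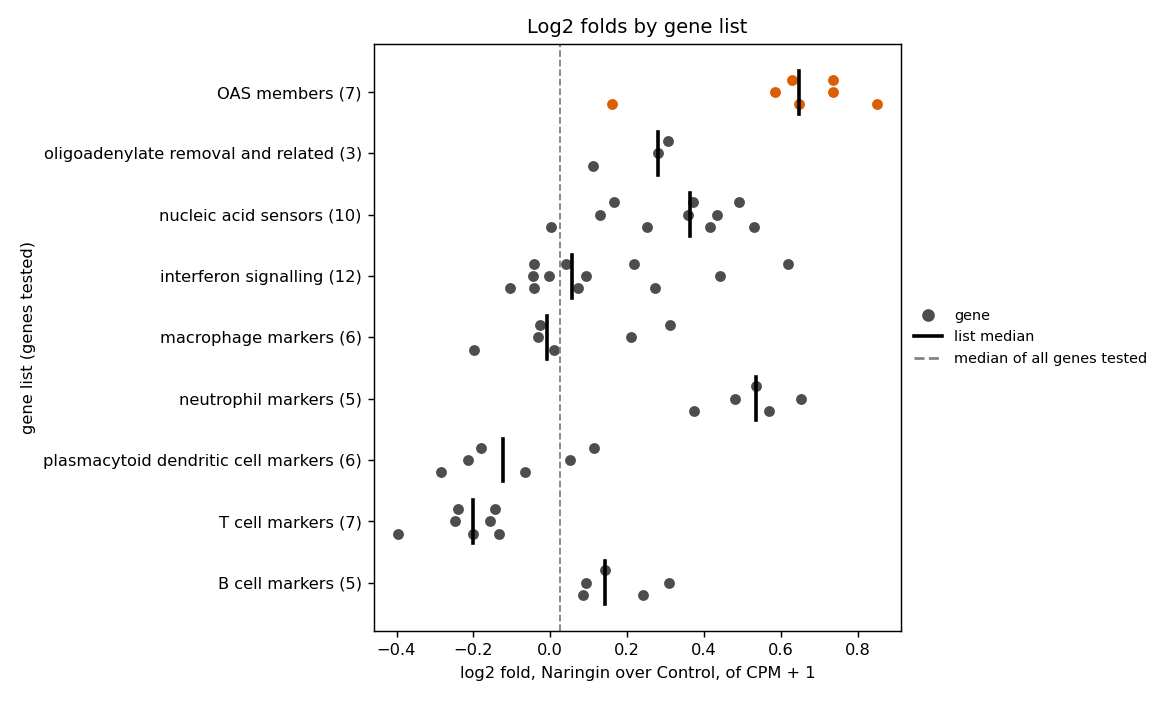
Log2 fold of CPM + 1, Naringin over Control, for each tested gene of the lists, with the list median (bar) and the median of all genes tested (dashed line, 0.02). The OAS members have a median of 0.65, the list around nucleic acid sensing 0.36 and interferon signalling 0.06.

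Marker genes of node cells also differed between libraries, and in bulk tissue fewer cells of a type and less RNA per cell cannot be told apart. Beside each count of higher or lower markers below, 56.7% of all genes tested had a higher mean log2(CPM + 1) with naringin. The T cell markers were present and had lower means with naringin in 7 of 7, with sums of 1288 to 1636 CPM with naringin and 1573 to 1721 CPM in Control. In 2 of the 7, Cd4 and Cd5, each Naringin library lay below each Control library, against 2.29% of all genes tested. The B cell markers had higher means in 5 of 5, with sums of 2613 to 3360 CPM with naringin and 2591 to 2841 CPM in Control. No marker of either list passed the limma threshold. Of the macrophage markers, 3 of 6 had a higher mean log2(CPM + 1) with naringin: Siglec1, Marco and Mertk. In Adgre1 and Csf1r the mean CPM was higher with naringin, but the log2 fold was -0.03 in each. In Cd68 both measures were lower with naringin. The macrophage markers summed to 1903, 1239 and 590.5 CPM with naringin and 767.9, 945.4 and 1492 CPM in Control. All 5 tested neutrophil markers were higher, against 56.7% of all genes tested. Without Naringin 1, the log2 folds were -0.02 for S100a8, -0.04 for S100a9, -0.14 for Csf3r, 0.05 for Cxcr2 and 0.04 for Retnlg. The untested Ly6g had 12 reads with naringin and 16 in Control, with 0 in Naringin 3 and Control 1. The 6 listed neutrophil markers summed to 275.4, 135.5 and 51.8 CPM with naringin and 57.4, 59.6 and 234.2 CPM in Control. Naringin 1, Naringin 2 and Control 3 were thus the highest libraries in both lists, as they were in Oas1a, Oas1g, Oasl1 and Oasl2. The markers of plasmacytoid dendritic cells, the main producers of type I interferon, were higher in 2 of 6 and summed to 271.2 to 366.2 CPM with naringin and 307.1 to 382.2 CPM in Control. The fat cell markers were lower in the 5 tested of 7 listed, and the 7 summed to 5.95 to 21.8 CPM with naringin and 14.1 to 58.8 CPM in Control. Of the untested pair, Plin1 averaged 0.962 CPM with naringin and 0.889 CPM in Control, and Lep had 4 reads with naringin and 9 in Control. The red blood cell markers were higher in 5 of 5, with sums of 55.2 to 58.8 CPM with naringin and 32.1 to 49.6 CPM in Control. In 2 of the 5, Hba-a1 and Hba-a2, each Naringin library lay above each Control library, against 3.36% of all genes tested. Of these markers, 0 passed the limma threshold. The macrophage marker Siglec1 is itself induced by interferon. The part of these cell types in the values of the members was not tested.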

How the data were processed

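RNA was sequenced from 6 lymph node samples. Per the labels' protocols, RNA came from an RNeasy column kit and libraries from the NEBNext Ultra kit. Per the submitters' processing notes, the tools were STAR 2.7.9a, Trimmomatic 0.39, featureCounts of Subread 1.6.0 and edgeR 3.40.0, and the build mm39. Gene annotation and strandedness were not given in the sources used here. The deposited values are CPM: the authors scaled each library to 1000000 with no other factor. All values above 0 (100%) were whole reads within 0.01 of a read.

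Genes averaging 1 CPM or more across all 6 libraries were fitted as log2(CPM + 1) with limma 3.58.1 in R 4.3.3, with trend and robust moderation, 2-sided, and Benjamini-Hochberg adjustment at 0.05. The recovered reads were also tested with edgeR 4.0.16 and DESeq2 1.42.0. The steps were tested on simulated reads. Exon lengths and transcripts came from GENCODE M21 and promoter sequences from RefSeq (GRCm38.p6). The members, lists and tests were chosen with earlier results of these data known. The text names the members, genes of the pathway lists (the interferon genes mostly as a group; some genes of the lists are not reported here) and the 10 non-members nearest in profile, leaving out predicted genes, pseudogenes and antigen receptor segments. Gm13822, Gm43069, the 16-base run and Apol9a and Apol9b were chosen after their values were seen.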

Additional observations from a re-analysis of the deposited data

How the results depend on the processing

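The alternatives run were 17, 11 of them settings and 6 leaving out a library (16 for Oas1g, which the filter at a mean of 5 CPM removed). Each log2 fold stayed above 0 in all 7 members, but this contrast chose the members, so the sign is no support. Changing the filter, limma without trend and the replicate block leave a member's fold unchanged by construction. Each fold moved by less than 1 SD between libraries, which leaving out 1 of 3 libraries cannot exceed. That of Oas1a ran from 0.22 without Control 2 to 0.94 without Control 3. The median over members, 0.65, ran from 0.42 without Control 2 to 0.94 without Control 3. The number of genes called was 3 with DESeq2, and with a library left out 0 to 1, the 1 being without Control 3. It was 0 under the other settings, and 0 genes of the pathway lists were called in any. The mean share of Oas3 in the members' CPM with naringin, 22.9%, was 10.7% per kilobase of exon and 13.3% per kilobase of the longest coding transcript, a length chosen after seeing the data; the lengths themselves make this change. Deviations of same-numbered libraries correlated at -0.26, -0.019 and -0.27, and those of differently numbered libraries at -0.13 to 0.31. Within a group of 3 the deviations sum to 0, so these values do not settle whether replicate numbers pair the libraries. With a replicate block, 0 genes were called. The median over members, 0.65, is the same by construction, since each replicate number occurs once in each group. Low counts limit Oas1g most, at 17 to 150 reads.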
